A study of Homo sapiens with 12 samples.

Results

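The Hedgehog pathway genes described here were the ligands SHH and IHH, the receptor PTCH1, the signal transducer SMO, the transcription factors GLI1, GLI2 and GLI3, the ligand-binding antagonist HHIP and the GLI inhibitor SUFU. They were the 9 of 38434 named genes that carry these symbols in the count tables of both cell lines, and they were chosen by their raw counts in all 12 libraries, maspin against ctrl in each line, so that these values were known. Poly(A) RNA was sequenced from the human lung squamous cell carcinoma (LUSC) cell lines LK-2, grown in RPMI1640, and RERF-LC-AI, grown in Eagle's minimum essential medium, both with 10% fetal bovine serum. All cells had passed lentiviral transduction and blasticidin selection, and each group was a pool of surviving clones. LK2-ctrl and LC-AI-ctrl cells carried the green fluorescent protein ZsGreen, and LK2-maspin and LC-AI-maspin cells carried maspin joined to ZsGreen by a self-cleaving P2A peptide. Each of the 4 groups had 3 libraries, and the sources used here do not say whether these were separate cultures, so that the p-values measure the spread between libraries of 1 pool.

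Hedgehog ligands are secreted proteins that bind PTCH1, which without a ligand keeps SMO inactive. Once SMO is released it acts through the primary cilium, where the hold of SUFU on the GLI proteins is loosened. GLI2 is then mainly an activator and GLI3 is mainly cut into a repressor when no ligand is bound, while GLI1, PTCH1 and HHIP are transcribed in response to the signal. In the developing lung SHH is made by the airway epithelium and received by the mesenchyme around it.

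The libraries held 39802246 to 54941357 counts over named genes for LK-2 and 50143577 to 65454432 for RERF-LC-AI cells. SERPINB5, the gene of maspin, had 1.70 to 1.90 CPM (counts scaled to library size) in the LK2-ctrl libraries and 44.8 to 47.4 CPM in the LK2-maspin libraries. It had 0.154 to 0.291 CPM in LC-AI-ctrl and 470.1 to 550.5 CPM in LC-AI-maspin libraries, which matched the labels. Levels between libraries are given throughout as CPM scaled by TMM (trimmed mean of M-values) over all 12 libraries. Of 6 squamous markers (TP63, SOX2, KRT5, KRT6A, KRT14 and DSG3), the means of LC-AI-ctrl and of LC-AI-maspin each reached 1 CPM for DSG3 alone. The LK2-ctrl group mean reached it for 4 of 6, but the sum of the list, 481.6 to 537.1 CPM, was nearly all SOX2 at 499.8 ± 28.4 CPM (SD, n = 3), and TP63 stood at 1.18 ± 0.420 CPM. The list summed to 2.82 to 3.76 CPM over the RERF-LC-AI libraries. These squamous markers were therefore mostly absent or low in RERF-LC-AI cells. In LK2-ctrl cells KRT5 (mean 0.726 CPM), KRT14 (0.0366 CPM), KRT6A (1.26 CPM) and DSG3 (4.71 CPM) were low beside SOX2 as well. Of 4 fibroblast markers (COL1A1, COL1A2, DCN and LUM) the group mean reached 1 CPM for 3 in LK2-ctrl and for 2 in each other group, and the list summed to 13.7 to 22.5 CPM in LK2-ctrl, 15.4 to 24.5 in LK2-maspin, 32.2 to 49.2 in LC-AI-ctrl and 23.0 to 25.7 CPM in LC-AI-maspin libraries. The neuroendocrine list summed to 24.1 to 32.5 CPM for LK-2 and 4.16 to 5.45 CPM for RERF-LC-AI libraries, with CHGA under 1 CPM in each group. The adenocarcinoma list summed to 5.93 to 7.82 and 1.31 to 1.93 CPM, the leukocyte list to 3.97 to 5.29 and 3.22 to 4.74 CPM, and the endothelial list to 3.24 to 6.49 and 2.40 to 3.19 CPM.

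Shown first are the 250 bases before the start sites of SHH and PTCH1, the genes whose values moved past the threshold in 1 line each. They come from RefSeq (GRCh38.p14), in which 7 of the 9 genes matched an entry. The SHH bases lie at chr7:155812464-155812713 and the PTCH1 bases at chr9:95509267-95509516, both on the minus strand, and are written 5′ to 3′ with the last base next to the start site. Capitals mark TATAA in SHH, 30 to 26 bases before the start site, and TGGGTGGTC in PTCH1, 172 to 164 bases before it. The PTCH1 stretch was chosen among those of its 5 start sites because it holds TGGGTGGTC. Its start site at 95509266 lies inside the gene, whose outer end on this strand is at 95516971.
SHH: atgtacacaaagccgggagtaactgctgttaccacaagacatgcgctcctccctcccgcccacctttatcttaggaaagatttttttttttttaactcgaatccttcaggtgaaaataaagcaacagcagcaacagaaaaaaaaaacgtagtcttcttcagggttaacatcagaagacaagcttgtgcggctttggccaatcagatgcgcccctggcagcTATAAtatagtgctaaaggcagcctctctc
PTCH1: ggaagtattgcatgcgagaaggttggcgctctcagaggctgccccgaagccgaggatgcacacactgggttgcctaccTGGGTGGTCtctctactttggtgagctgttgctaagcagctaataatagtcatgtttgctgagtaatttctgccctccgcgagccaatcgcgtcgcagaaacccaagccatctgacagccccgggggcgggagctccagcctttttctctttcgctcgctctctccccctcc
TGGGTGGTC (reverse complement GACCACCCA) is the core letter sequence bound by GLI proteins, and searched on both strands it stood in 70 of 35116 upstream stretches of the same length, or 0.199%. Among the 12 entries of the 9 genes it stood in 1, which is 1 of 5 start sites of PTCH1. TATAA, the core of the TATA box, was searched on the gene's strand from 40 to 21 bases before the start site, and 1324 of 35116 entries (3.77%) held it. Of the 12 entries that of SHH held it. The SHH stretch had 44.4% G and C with 7 CpG, and the PTCH1 stretch 57.2% with 13 CpG. A match of letters describes the sequence and not binding.

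SHH is placed at 155799980 to 155812463 on chromosome 7 of GRCh38.p14, and SMO at 129188633 to 129213545 and GLI3 at 41960949 to 42264268 of the same chromosome. PTCH1 is at 95442980 to 95516971 on chromosome 9, GLI1 at 57459785 to 57472268 on chromosome 12, HHIP at 144646156 to 144745271 on chromosome 4 and SUFU at 102502819 to 102633535 on chromosome 10. GLI2 is at 120735868 to 120992653 and IHH at 219054424 to 219060921 on chromosome 2. PTCH1 overlaps the lncRNA LOC100507346, which had 48 to 85 counts per LK-2 library and 4 to 16 per RERF-LC-AI library. The sources used here do not say whether counting used the strand, so that reads of these overlapping genes may not be told apart.

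The 9 genes differed widely in level within each line. To compare genes, counts were divided by transcript length and scaled to a fixed total per library (TPM). In LK2-ctrl cells SHH stood highest at 149.9 ± 17.5 TPM (SD, n = 3), followed by PTCH1 at 63.2 ± 12.4, SMO at 31.4 ± 0.281, SUFU at 14.4 ± 1.06, GLI3 at 12.01 ± 1.27 and GLI2 at 2.30 ± 0.447 TPM. The ranges of neighbours in this order did not overlap. GLI1 at 0.589 ± 0.0994 TPM and HHIP at 0.581 ± 0.0663 TPM overlapped each other, and IHH was lowest at 0.0453 ± 0.0467 TPM. SHH ranked 1132 of 26448 genes by mean TPM in LK2-ctrl cells and 2239 in LK2-maspin cells.

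In LK2-maspin cells SHH at 81.0 ± 14.2 TPM and PTCH1 at 80.8 ± 15.1 TPM (SD, n = 3) overlapped, and the other 7 genes kept their places apart from GLI1 and HHIP, which overlapped again. The ratio of SHH to PTCH1 in TPM was 3.22, 2.22 and 1.91 in the LK2-ctrl libraries and 1.497, 0.880 and 0.771 in the LK2-maspin libraries. The 2 groups of ratios did not overlap.

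The order differed in RERF-LC-AI cells, where SMO stood highest at 19.5 ± 1.34 TPM in LC-AI-ctrl and 18.6 ± 1.13 TPM in LC-AI-maspin cells (SD, n = 3). SUFU followed at 9.75 ± 0.955 and 9.72 ± 0.730 TPM and PTCH1 at 4.11 ± 0.322 and 2.72 ± 0.221 TPM, and neither overlapped its neighbour in the order. GLI2 at 1.36 ± 0.0558 and 1.55 ± 0.0835 TPM came before GLI3 at 0.890 ± 0.171 and 1.1 ± 0.309 TPM. These overlapped in LC-AI-maspin and not in LC-AI-ctrl cells. GLI1, HHIP and SHH were all between 0.202 and 0.620 TPM, and in LC-AI-maspin cells each overlapped the other two. The ratio of GLI3 to GLI2 was 3.71 to 6.59 over the 6 LK-2 libraries and 0.509 to 0.951 over the 6 RERF-LC-AI libraries.

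**Figure D1:**
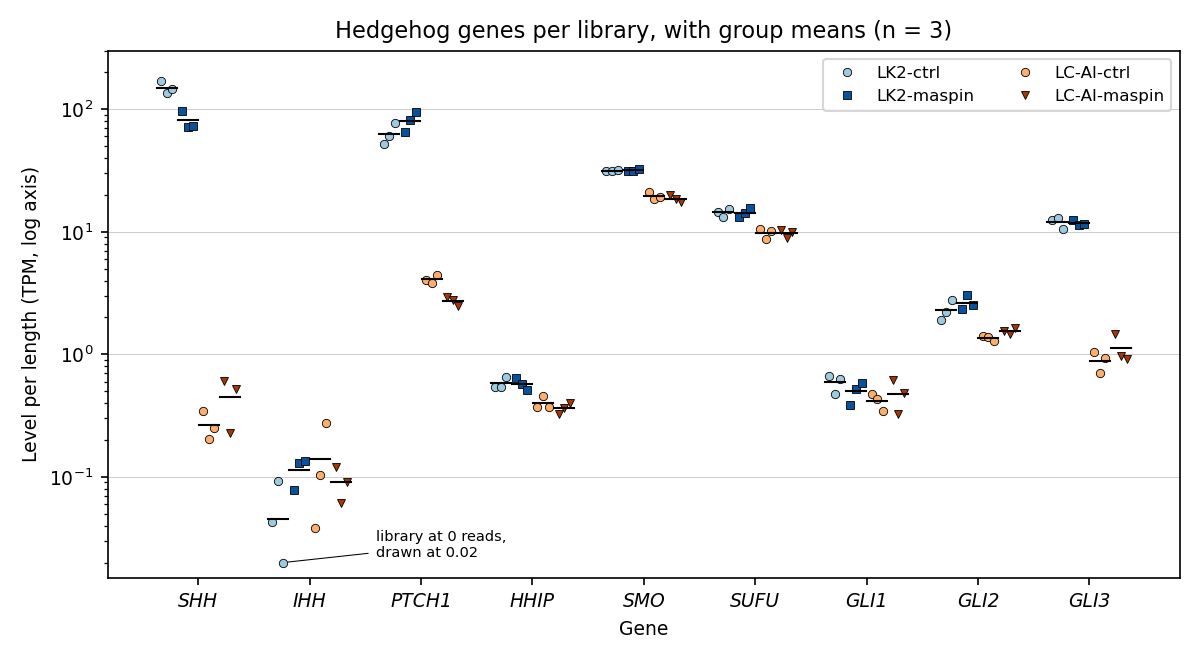
Level of the 9 genes in TPM (vertical log axis) for each library of the 4 groups, with 3 libraries a group and the group mean as a horizontal line. SHH and PTCH1 stood above 50 TPM in each LK-2 library, while SHH lay under 1 TPM in each RERF-LC-AI library; the IHH library without reads is drawn at 0.02.

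Among the ligands, SHH was the abundant one in LK-2 cells, and its level was lower with maspin. The LK2-ctrl libraries had 294, 234.8 and 238 CPM and the LK2-maspin libraries 162, 124 and 122 CPM, so that the groups did not overlap. The means were 256 ± 33.2 and 136 ± 22.7 CPM (SD, n = 3), and the log2 fold change was -0.91 (SE 0.114), a fall to 0.534 of the ctrl level. It passed the adjusted threshold of 0.05 in edgeR's quasi-likelihood test, as it did in each of 14 alternative settings, with log2 fold changes from -1.05 to -0.80. Because the 9 genes were chosen with this contrast known, their values in it are a description, and no p is given. In bulk RNA, fewer cells that express a gene and less RNA of it per cell cannot be told apart.

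Squamous markers moved in the same contrast. The list summed to 394.6 to 447.2 CPM in LK2-maspin libraries, below the 481.6 to 537.1 CPM of LK2-ctrl, and 5 of 6 group means in place of 4 reached 1 CPM. KRT5, a basal keratin, was the 1 of 5 tested markers that was called, with 0.726 ± 0.192 CPM in LK2-ctrl and 6.91 ± 1.61 CPM in LK2-maspin cells (SD, n = 3; log2 change 3.25, SE 0.232, adjusted p = 4.65e-05 in edgeR's test). SOX2 had 397 ± 31.6 CPM in LK2-maspin cells, with a log2 change of -0.33 (adjusted p = 0.0756 in the same test). The lower sum of the list was mostly that of SOX2. KRT6A went from 1.26 to 2.47 CPM (log2 change 0.96, adjusted p = 0.138) and DSG3 from 4.71 to 7.02 CPM (0.57, adjusted p = 0.438), both without overlap. TP63 changed by -0.18 with overlap. KRT14 was not tested, with 0, 4 and 2 counts in LK2-ctrl libraries and 0 in each LK2-maspin library. The part of these markers in the result for SHH was not tested.

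In RERF-LC-AI cells SHH was low, at 22 to 64 counts per library. The LC-AI-ctrl libraries had 34, 22 and 24 counts (0.707, 0.423 and 0.517 CPM) and the LC-AI-maspin libraries had 57, 28 and 64 counts (1.18, 0.471 and 1.03 CPM). The library with 28 counts lay within the ctrl range, so the groups overlapped. The log2 fold change of 0.70 (SE 0.336) did not pass the threshold, and neither did that of any of 14 alternative settings.

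IHH, the other ligand, had 2, 5 and 0 counts in LK2-ctrl, 4, 5 and 6 in LK2-maspin, 2, 6 and 14 in LC-AI-ctrl and 6, 4 and 6 counts in LC-AI-maspin libraries. The library at 0 allows a level of up to 0.0678 CPM. This is 3 counts of its total without TMM scaling, for counting error only. Where a fragment enters as 2 reads, the bound is higher. IHH was the 1 of 9 genes that did not pass the filter on low counts, so it entered no test. Whether IHH differed between the groups cannot be told at this depth.

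PTCH1, the receptor and itself a GLI target, fell with maspin in RERF-LC-AI cells. The LC-AI-ctrl libraries had 15.4, 14.9 and 17.1 CPM and the LC-AI-maspin libraries 10.6, 10.7 and 9.23 CPM, without overlap. The means were 15.8 ± 1.11 and 10.2 ± 0.813 CPM (SD, n = 3), and the log2 fold change of -0.63 (SE 0.0894), to 0.644 of the ctrl level, passed the threshold in the main and in 14 of 14 alternative settings (-0.68 to -0.57). The fibroblast marker COL1A2, a collagen chain, fell between the same groups, from 41.46, 27.99 and 26.19 CPM to 17.64, 14.98 and 16.59 CPM (log2 change -0.96, SE 0.109, adjusted p = 2.64e-07 in edgeR's test). It was the 1 of 3 tested fibroblast markers that was called, and DCN and LUM lay under 1 CPM in each RERF-LC-AI library. COL1A1 had 6.32 ± 0.829 CPM in LC-AI-ctrl and 6.92 ± 0.932 CPM in LC-AI-maspin cells, with a log2 change of 0.13 (SE 0.124). The log2 change of DCN was 0.52 (SE 0.379), and the groups overlapped for both COL1A1 and DCN. The part of these markers in the changes between LC-AI-ctrl and LC-AI-maspin cells was not tested.

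In LK-2 cells PTCH1 was not called, except with the replicate number as a block. The LK2-ctrl libraries had 169.9, 197 and 233 CPM and the LK2-maspin libraries 202, 262 and 295 CPM. The lowest maspin library lay below the highest ctrl library, so the groups overlapped. The means were 199.8 ± 31.5 and 253 ± 47.2 CPM (SD, n = 3), with a log2 change of 0.34 (SE 0.138, 95% interval 0.07 to 0.61). In library order the maspin value was above the ctrl value of the same replicate number in 3 of 3 cases. With the replicate block the log2 change of 0.34 had an SE of 0.0369 and passed the threshold. The labels do not say that these numbers pair the libraries. The block also raised the calls over all genes in LK-2 cells from 140 to 1190, so no weight is put on it. Set side by side, the log2 fold changes of SHH were -0.91 for LK-2 and 0.70 for RERF-LC-AI cells, and those of PTCH1 were 0.34 and -0.63. The difference between the lines was given no test for these genes, since the same contrasts had chosen them.

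**Figure D2:**
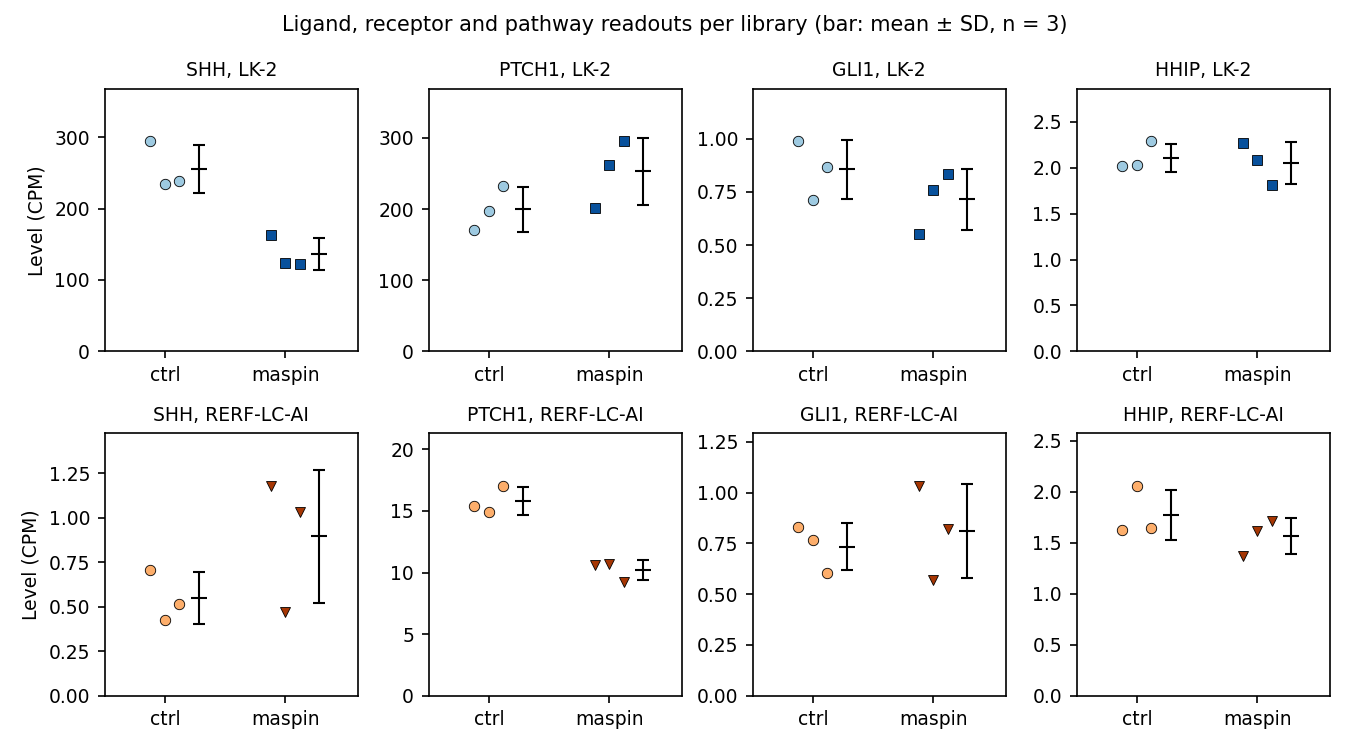
CPM (vertical axes from 0, each panel with its own scale) of SHH, PTCH1, GLI1 and HHIP in the 3 ctrl and 3 maspin libraries of LK-2 (upper row) and RERF-LC-AI (lower row), with mean ± SD beside the points. The ctrl and maspin points were apart for SHH in LK-2 and for PTCH1 in RERF-LC-AI cells and overlapped in the other 6 panels.

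The other transcripts that commonly follow Hedgehog signalling were low in each group. GLI1 had 0.856 ± 0.139 CPM in LK2-ctrl, 0.715 ± 0.145 in LK2-maspin, 0.735 ± 0.118 in LC-AI-ctrl and 0.810 ± 0.231 CPM in LC-AI-maspin cells (SD, n = 3), from 28 to 51 counts per library. Its log2 fold change with maspin was -0.26 for LK-2 (95% interval -0.81 to 0.29) and 0.13 for RERF-LC-AI cells (-0.45 to 0.71), and the groups overlapped in both lines. HHIP had 2.11 ± 0.152 and 2.05 ± 0.231 CPM in LK2-ctrl and LK2-maspin and 1.77 ± 0.247 and 1.56 ± 0.179 CPM in LC-AI-ctrl and LC-AI-maspin cells. Its log2 fold changes were -0.04 (-0.38 to 0.31) and -0.18 (-0.56 to 0.21). PTCH1 thus stood at 78.9 to 168 times GLI1 in TPM over the LK-2 libraries and 4.71 to 12.9 times over the RERF-LC-AI libraries.

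The signal transducer SMO and the GLI inhibitor SUFU followed in level behind PTCH1 in LK-2 cells. SMO had 45.8 ± 1.44 and 45.5 ± 0.667 CPM in LK2-ctrl and LK2-maspin and 34.4 ± 2.13 and 31.9 ± 1.66 CPM in LC-AI-ctrl and LC-AI-maspin cells (SD, n = 3). SUFU had 26.4 ± 1.15, 26.0 ± 2.36, 21.7 ± 1.91 and 21.04 ± 0.962 CPM in the same order. The 95% intervals of the maspin log2 fold change were -0.13 to 0.11 for SMO and -0.19 to 0.15 for SUFU with LK-2, and -0.24 to 0.01 and -0.19 to 0.10 with RERF-LC-AI cells. Neither gene was called in either line.

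GLI2 and GLI3 were not called with maspin either. GLI2 had 5.99 ± 0.940 and 6.82 ± 1.07 CPM in LK2-ctrl and LK2-maspin cells (SD, n = 3), where the groups overlapped. In LC-AI-ctrl libraries it had 4.41, 4.42 and 4.07 CPM and in LC-AI-maspin libraries 4.65, 4.66 and 5.00 CPM, which did not overlap, with a log2 change of 0.15 (SE 0.128). GLI3 had 37.1 ± 5.29 and 35.8 ± 1.33 CPM in the LK-2 groups and 3.32 ± 0.608 and 4.05 ± 1.02 CPM in the RERF-LC-AI groups, overlapping in both lines. Its log2 fold changes were -0.05 (SE 0.0910) and 0.28 (SE 0.169).

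Of the 8 genes that passed the filter, SHH alone was called in LK-2 and PTCH1 alone in RERF-LC-AI cells, 1 of 8 genes each and both lower. Over all genes 0.533% of 26270 were called for LK-2 and 10.5% of 25197 for RERF-LC-AI cells. Those called lower were 0.16% and 6.53%. With the replicate block 2 of 8 genes, SHH and PTCH1, were called in LK-2 cells, beside 4.53% of all genes. Groups did not overlap for 1 of 9 genes in LK-2 cells and 2 of 9 in RERF-LC-AI cells, beside 11.6% and 25% of all genes tested. The median log2 fold change of the 8 genes was -0.03 for LK-2 and 0.04 for RERF-LC-AI cells, and that of all genes tested was -0.000998 and 0.0137. Nothing is read from these counts, since the contrasts chose the genes.

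**Figure D3:**
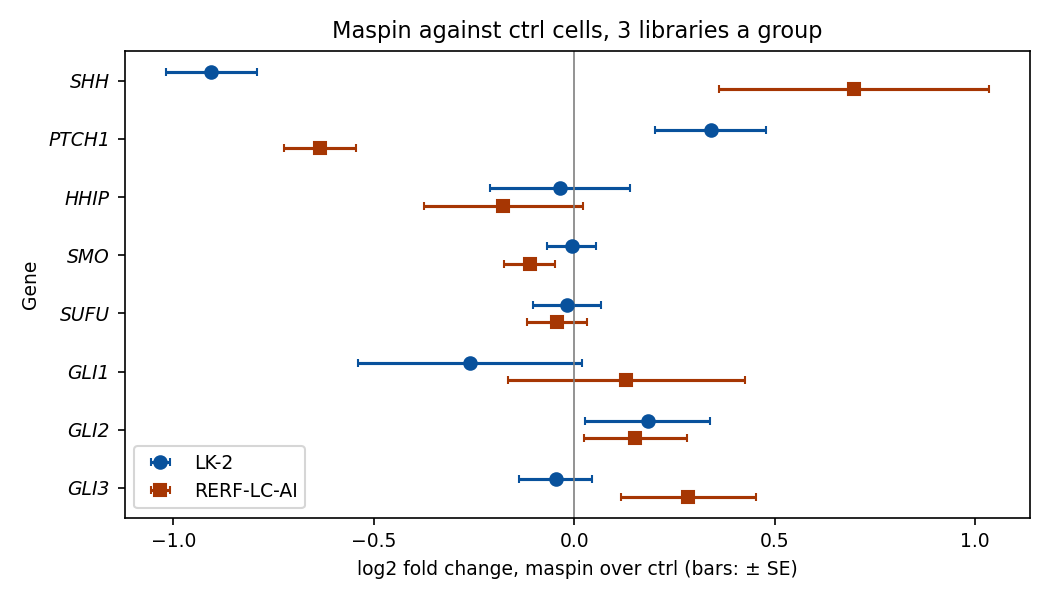
Log2 fold change of maspin over ctrl (horizontal axis) with its SE for the 8 genes that passed the filter, in LK-2 (circles) and RERF-LC-AI (squares), 3 libraries a group. SHH at -0.91 in LK-2 and PTCH1 at -0.63 in RERF-LC-AI were called, and the other points were not.

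The difference between the cell lines was not the contrast named in the choice of the genes. It used the same 12 libraries, however, and earlier results of these data were known. The p-values of the chosen genes in it do not account for that choice. LK-2 stood above RERF-LC-AI for 6 of the 8 genes that passed the filter in 1 fit of all 12 libraries. In LK2-ctrl against LC-AI-ctrl cells SHH was higher by 8.86 on the log2 scale (SE 0.207, adjusted p = 1.69e-18), PTCH1 by 3.66 (SE 0.130, adjusted p = 1.41e-15) and GLI3 by 3.49 (SE 0.152, adjusted p = 4.09e-14). As folds these are 466, 12.7 and 11.2 times, and the libraries of the lines did not overlap for any of them. Over the 9 genes the ctrl libraries of the lines did not overlap for 6, beside 66.4% of all genes tested. GLI2 was higher by 0.48 (SE 0.140, adjusted p = 0.00575), SMO by 0.41 (SE 0.0666, adjusted p = 1.82e-05) and SUFU by 0.28 (SE 0.0847, adjusted p = 0.00692).

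GLI1 and HHIP were not called between the ctrl groups, with differences of 0.21 (95% interval -0.34 to 0.77, adjusted p = 0.532) and 0.25 (-0.10 to 0.60, adjusted p = 0.236). Thus 6 of 8 genes (75%) were called, all 6 higher in LK-2, where 61.9% of the 28123 genes tested were called, 31.4% of them higher and 30.5% lower in LK-2. The line, its medium, the version of SAMtools and the preparation of the libraries cannot be told apart in these differences.

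The contrast of the maspin groups, from the same fit of 12 libraries, gave the same 6 calls. In LK2-maspin against LC-AI-maspin cells SHH was higher by 7.27 (SE 0.1903, adjusted p = 1.04e-17), PTCH1 by 4.64 (SE 0.136, adjusted p = 6.47e-17) and GLI3 by 3.158 (SE 0.147, adjusted p = 1.22e-13). SMO was higher by 0.51 (adjusted p = 9.92e-07), GLI2 by 0.51 (adjusted p = 0.00316) and SUFU by 0.31 (adjusted p = 0.00382). GLI1 had a difference of -0.18 (95% interval -0.74 to 0.38, adjusted p = 0.618), which changed sign with library size only, and HHIP one of 0.39 (0.04 to 0.74, adjusted p = 0.0675). Again 6 of 8 (75%) were called, beside 59.8% of all genes tested, 29.2% higher and 30.6% lower in LK-2. The libraries of the lines did not overlap for 7 of the 9 genes, beside 65.9% of all genes tested.

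The median of all genes was 0.12 in the ctrl contrast and 0.06 in the maspin contrast, and with library size only in place of TMM it rose by 0.22 and 0.20. Relative to that median, SUFU was higher in LK-2 by 0.16 and 0.25, SMO by 0.29 and 0.45 and GLI2 by 0.36 and 0.45 on the log2 scale. In the ctrl contrast GLI2 was not called without LK2-ctrl replicate 3 (0.33, adjusted p = 0.0561, with adjusted p from 3.81e-04 to 0.0561 over 19 alternatives). SUFU was not called without LC-AI-ctrl replicate 2 (0.21, adjusted p = 0.0563, with 9.43e-05 to 0.0563 over 19). HHIP was called in the ctrl contrast with library size only and in the maspin contrast in 3 of 19 settings.

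**Figure D4:**
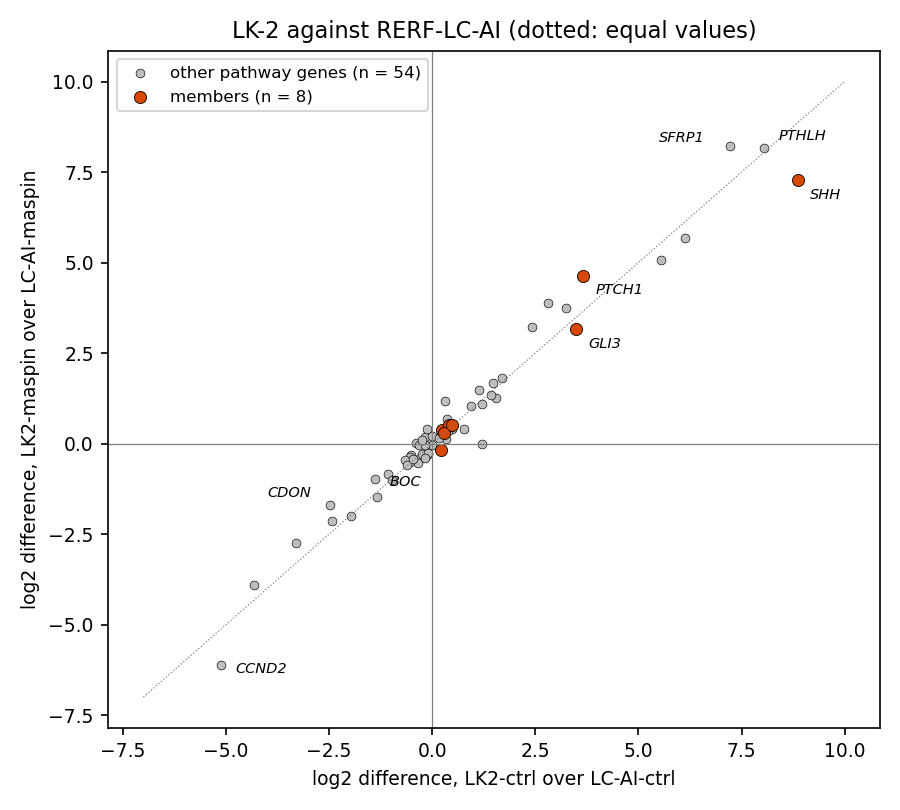
Log2 difference of LK-2 over RERF-LC-AI in the ctrl libraries (horizontal axis) and in the maspin libraries (vertical axis) for the 8 tested members and 54 other pathway genes, with equal values on the dotted line. SHH at 8.86 and 7.27 lay farthest to the right, and SFRP1 and PTHLH lay close to it.

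Around the 9 genes, 54 other genes of the pathway in 6 lists were counted. In LK-2 cells 1 of 54 (1.85%) was called with maspin by edgeR's quasi-likelihood test, beside 0.533% of all genes (0.373% higher). An unadjusted p under 0.05 was found for 10 of 54, beside 6.36% of all genes. With the replicate block 11 of 54 were called, 7 higher and 4 lower, beside 4.53% of all genes. The gene called without the block was BMP4, a secreted growth factor counted among GLI targets. It had 44.6, 48.0 and 48.2 CPM in LK2-ctrl and 62.9, 72.8 and 65.7 CPM in LK2-maspin libraries, which did not overlap. Its log2 fold change was 0.52 (SE 0.0730, adjusted p = 0.00687). The call was lost without LK2-ctrl replicate 2 (0.53, adjusted p = 0.0705) and likewise without LK2-maspin replicate 2 (0.46, adjusted p = 0.0854), with adjusted p from 5.05e-14 to 0.0854 over 14 alternatives.

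The medians of the lists in LK-2 cells were -0.06 for 6 genes of other ligands and ligand release, 0.20 for 7 other receptors and coreceptors, 0.03 for 8 SMO regulators, -0.02 for 14 GLI regulators, 0.02 for 5 genes of ciliary transport and 0.03 for 14 GLI target genes. DHH, the other Hedgehog ligand, had 1.05 ± 0.208 and 1.33 ± 0.313 CPM in LK2-ctrl and LK2-maspin cells (SD, n = 3).

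In RERF-LC-AI cells 9 of 53 tested pathway genes (17%) were called with maspin, 2 higher and 7 lower, beside 10.5% of all genes, 4.01% higher and 6.53% lower. An unadjusted p under 0.05 in the same test was found for 18 of 53, beside 20.8% of all genes. With the replicate block 15 of 53 were called, 4 higher and 11 lower, beside 16.2% of all genes. With library size only 4 were higher and 6 lower, and over all genes 1408 were higher and 1287 lower in place of 1010 and 1645. The 9 genes lay in 3 lists, with 2 of 8 SMO regulators, 3 of 14 GLI regulators and 4 of 13 GLI target genes. The medians of these lists were -0.10, 0.000124 and -0.28, and those of the ligand release, receptor and ciliary lists were 0.04, -0.08 and 0.04.

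Both SMO regulators called were lower. GRK2, a kinase that phosphorylates active SMO, had 103, 97.2 and 100.3 CPM in LC-AI-ctrl and 83.1, 84.4 and 83.1 CPM in LC-AI-maspin libraries, with a log2 change of -0.26 (SE 0.0475, adjusted p = 2.85e-04). GPR161, a ciliary receptor that represses the pathway, had 37.4, 38.5 and 36.2 CPM against 30.8, 30.8 and 28.9 CPM, with a log2 change of -0.31 (SE 0.0598, adjusted p = 5.77e-04). The groups did not overlap for either gene.

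Among the GLI regulators, the catalytic subunits of protein kinase A, which phosphorylates GLI proteins, were lower. PRKACB fell by 0.32 on the log2 scale (SE 0.0636, adjusted p = 7.85e-04) and PRKACA fell by 0.17 (adjusted p = 0.0246). GSK3B, another kinase of GLI proteins, was higher by 0.17 (adjusted p = 0.0231). PRKACA was not called without LC-AI-ctrl replicate 2 or 3, without LC-AI-maspin replicate 1 or 3 or with all 12 libraries in 1 fit (adjusted p = 0.0951 to 0.196, with 0.00104 to 0.196 over 14 alternatives). GSK3B was not called without LC-AI-ctrl replicate 1 or 3, without LC-AI-maspin replicate 1 or 2 or in that fit (adjusted p = 0.0525 to 0.122, with 0.0023 to 0.122 over 14).

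Of the GLI target genes CCND2, a D-type cyclin, had 14.37, 13.04 and 11.04 CPM in LC-AI-ctrl and 40.004, 38.81 and 38.81 CPM in LC-AI-maspin libraries, a log2 change of 1.61 (SE 0.0767, adjusted p = 3.74e-15). The forkhead gene FOXL1 had 9.84, 8.15 and 10.0 CPM against 5.90, 5.74 and 6.13 CPM, a log2 change of -0.65 (SE 0.109, adjusted p = 9.99e-05). CCND1, another D-type cyclin, fell by 0.28 (adjusted p = 7.06e-04). FOXF1, a forkhead gene of lung mesenchyme, fell by 0.52 (adjusted p = 0.042), but was not called with library size only, with all 12 libraries in 1 fit, without any 1 of the LC-AI-ctrl libraries or without LC-AI-maspin replicate 2 or 3 (adjusted p = 0.0617 to 0.291, with 0.00904 to 0.291 over 14 alternatives). With all 12 libraries in 1 fit FOXL1 (adjusted p = 0.0796) and CCND1 (adjusted p = 0.111) were not called either, with ranges from 6.41e-07 and 3.37e-08 up to these values. These genes moved in both directions within the list.

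BMP4 was the 1 of 54 pathway genes whose change with maspin differed between the lines, beside 1.76% of all genes (1.35% higher and 0.402% lower). An unadjusted p under 0.05 was found for 18 of 54, beside 12.5% of all genes. With the replicate block 11 of 54 were called, 10 higher and 1 lower, beside 8.08% of all genes. BMP4 had 8.32, 8.96 and 8.92 CPM in LC-AI-ctrl and 7.65, 7.19 and 6.68 CPM in LC-AI-maspin libraries, a log2 change of -0.28 (SE 0.103, adjusted p = 0.0823). The difference of the log2 fold changes, LK-2 minus RERF-LC-AI, was 0.80 (SE 0.111, adjusted p = 4.26e-04). Mean SERPINB5 was 46.4 CPM in LK2-maspin and 512 CPM in LC-AI-maspin cells. The line and the level of maspin RNA cannot be told apart in this difference.

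Between the lines, 43 of 54 pathway genes (79.6%) were called in the ctrl libraries, 21 higher and 22 lower in LK-2, beside 61.9% of all genes, and 41 of 54 (75.9%) in the maspin libraries, 20 higher and 21 lower, beside 59.8%. Of these, 19 were higher and 18 lower in both contrasts. With library size only 23 were higher and 15 lower in the ctrl libraries, and over all genes 11396 and 7053 in place of 8824 and 8583. Of the GLI target genes 14 of 14 were called in the ctrl libraries, 9 higher and 5 lower in LK-2, with a median of 2.05 beside 0.12 over all genes. Of the ciliary transport genes 3 of 5 were called, each lower in LK-2, a share close to the 61.9% of all genes.

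The values of SFRP1, a secreted WNT antagonist, and PTHLH, parathyroid hormone-like hormone, which are both counted among GLI targets, came closest to those of SHH. SFRP1 had 53.0 ± 3.01 CPM in LK2-ctrl and 0.354 ± 0.0996 CPM in LC-AI-ctrl cells (SD, n = 3), a log2 difference of 7.21 (adjusted p = 1.67e-20). PTHLH had 267 ± 38.0 and 1.01 ± 0.377 CPM, a difference of 8.05 (adjusted p = 2.56e-19). The list went both ways, with 9 of 14 targets higher and 5 lower in LK2-ctrl cells. Among the lower ones were CCND2 (log2 difference -5.11), FOXL1 (-4.31) and FOXF1 (-3.29).

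The coreceptors CDON and BOC, which bind Hedgehog ligands beside PTCH1, were lower in LK-2 by log2 differences of -2.48 (adjusted p = 1.25e-11) and -1.39 (adjusted p = 1.13e-05). EVC2 and EVC, ciliary partners of SMO, differed by -2.42 (adjusted p = 1.33e-11) and -1.08 (adjusted p = 4.50e-11). IFT88, a carrier of intraflagellar transport, differed by -0.61 (adjusted p = 3.88e-05). These 5 genes were lower in LK2-ctrl than in LC-AI-ctrl cells.

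DISP1, which releases lipid-bearing ligands from the cell, was higher in LK-2 by 1.55 (adjusted p = 3.35e-11) and SCUBE1, a secreted protein of a family that aids this release, by 0.48 (adjusted p = 0.00174). DYRK2, a kinase of GLI proteins, was higher by 1.46 (adjusted p = 2.09e-13) and SPOPL, a paralog of the GLI-degrading adaptor SPOP, by 1.42 (adjusted p = 3.01e-13). Each of the other pathway genes named in these comparisons of the lines was called with the same sign in the maspin libraries.

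Across the 6 libraries of a line, the genes whose log2 CPM followed that of SHH most closely in LK-2 cells were TBX3 (Pearson r = 0.998), DPYSL3 (0.993), CNTNAP3B (0.992), FAM171B (0.992) and TRAPPC12 (0.992), the highest of 17615 genes with a mean of at least 1 CPM. For PTCH1 they were TET2 (0.998), OSBPL1A (0.997), ITGA5 (0.996), RERE (0.995) and PRDM1 (0.994) in LK-2 cells. In RERF-LC-AI cells they were ABRAXAS1 (0.999), NNT (0.999), CRYBB3 (0.999), CRYL1 (0.997) and LOC100506100 (0.997), of 16742 genes. SHH and PTCH1 had r = -0.834 with each other over the 6 LK-2 libraries. These points are 3 ctrl libraries of 1 pool and 3 maspin libraries of another, and all genes of a library share its depth. The r therefore also carries the difference between groups, and it is given as a description.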

How the data were processed

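Poly(A) RNA of 4 groups with 3 libraries each was sequenced from strand-specific libraries. The authors trimmed reads with Trimmomatic (ver. 0.39), aligned them with BWA (ver. 0.7.17) to GRCh38.p13 and used SAMtools 1.12 for LK-2 and 1.10 for RERF-LC-AI cells. The sources used here do not name the counting tool. The deposited tables give raw counts of mapped reads per gene. A further 24 signal columns, scaled from the counts by the authors (edgeR 3.16.5), were not used. In each line 646 rows carry no gene symbol (0.292 to 0.416% of counts) and were left out. Of counts from 1 to 9, 23.9 to 26.2% were odd, so that most counts hold the 2 reads of each fragment.

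Counts were tested with edgeR 4.0.16 (quasi-likelihood F test, TMM, minimum count 10 and minimum total 15, R 4.3.3, limma 3.58.1, statmod 1.5.0), with Benjamini-Hochberg adjustment over all genes tested and a threshold of 0.05. Maspin was compared with ctrl within each line, and the lines in 1 fit of 12 libraries. The SE is the log2 fold change over the square root of F, and intervals are 1.96 SE. This normal quantile makes the 95% intervals narrower than the F test would. Biological coefficients of variation were 11.7% (LK-2), 6.43% (RERF-LC-AI) and 9.57% (all libraries). The test was also run on simulated counts with known fold changes and 1 fixed spread for all genes. That run held no changes as small as the smaller ones called here and no counts of paired reads. It therefore does not bear on those. TPM used the MANE Select or longest GENCODE transcript for 26448 genes, which hold 97.0 to 97.5% of counts. Alternatives were RLE factors, library size only, other filters, the likelihood ratio test, DESeq2 1.42.0, a replicate block, all 12 libraries or only those of 1 contrast, leaving out each library and an adjusted p under 0.01. Tables and figures used Python 3.11.15, pandas 2.3.3, numpy 2.4.6 and matplotlib 3.10.9.

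The members and the gene lists were chosen with earlier results of these data known. Named were the 9 members, called pathway genes (up to 4 per list and line, or 2 per list between lines), SERPINB5, markers, and the 5 genes most correlated with SHH or PTCH1 (0.1 added to CPM). DHH and LOC100507346, and the differences between the lines of CCND2, FOXL1 and FOXF1, were given after their values were seen. Some genes of the lists are not reported by name here.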

Additional observations from a re-analysis of the deposited data

Results flagged for a closer look

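BMP4 was picked out because its response to maspin differed between the cell lines in a test of that difference. Its log2 fold change was 0.52 (SE 0.0730) in LK-2 and -0.28 (SE 0.103) in RERF-LC-AI cells, and the difference of 0.80 (SE 0.111) had an adjusted p of 4.26e-04 in edgeR's quasi-likelihood test. All 3 LK2-maspin libraries lay above all 3 LK2-ctrl libraries, and all 3 LC-AI-maspin libraries lay below all 3 LC-AI-ctrl libraries. Over 19 alternatives the difference kept its call, with adjusted p from 8.27e-09 to 0.00333. The maspin groups also differed in mean SERPINB5, with 46.4 CPM in LK2-maspin and 512 CPM in LC-AI-maspin cells. The part of that level in the difference was not tested.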

How the results depend on the processing

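In LK-2 cells 140 genes were called with maspin, against 70 at an adjusted p under 0.01, 314 by the likelihood ratio test, 280 by DESeq2, 1190 with the replicate block, 251 with all 12 libraries in 1 fit and 50 to 199 with 1 library left out, the lowest counts without LK2-ctrl replicate 2 (50), LK2-maspin replicate 2 (52) or LK2-maspin replicate 3 (82). The 1 other pathway gene became 2 with no filter or at least 10 counts in every library, 3 by the likelihood ratio test or DESeq2, 11 with the replicate block and 0 to 2 with 1 library left out. In RERF-LC-AI cells 2655 genes became 1642 at an adjusted p under 0.01, 4081 with the replicate block, 1163 with all 12 libraries and 1764 to 2594 with 1 library left out, the lowest without LC-AI-maspin replicate 3. The 9 other pathway genes became 15 with the replicate block, 5 with all 12 libraries and 6 to 9 with 1 library left out. For the difference between the lines, 494 genes became 196 at an adjusted p under 0.01, 884 by the likelihood ratio test, 985 by DESeq2, 2273 with the replicate block and 275 to 754 with 1 library left out (316 without LK2-ctrl replicate 2, 754 for its replicate 3, 306 for LK2-maspin replicate 2, 282 for LC-AI-ctrl replicate 3 and 275 for LC-AI-maspin replicate 3). Its 1 pathway gene became 2 with RLE factors or the likelihood ratio test, 3 under either other filter, 4 by DESeq2, 11 with the replicate block and 1 to 3 with 1 library left out. The cause of these shifts was not tested. SHH in LK-2 and PTCH1 in RERF-LC-AI cells were called under each alternative, and PTCH1 in LK-2 cells was called with the replicate block alone. GLI1 in the maspin contrast between the lines, -0.18, turned to 0.01513 with library size only, ran from -0.36 to 0.04 with 1 library left out (0.04017 without LC-AI-maspin replicate 1), and was not called in any setting. The replicate block ended the call of no member or pathway gene named here. Whether the numbers pair the libraries, which the labels do not say, depended on the genes taken. Same-numbered ctrl and maspin libraries deviated together with r = 0.154, 0.0144 and 0.164 (LK-2) and 0.0437, 0.0533 and 0.00167 (RERF-LC-AI) over all genes tested. Over genes with a mean log2 CPM over 3, r was 0.744, 0.113 and 0.750 and 0.369, 0.39 and 0.203, each over 0.1, but the second LK2-ctrl library had a higher r with the first LK2-maspin library (0.18) than with that of its own number. Depth limited IHH (0 to 14 counts), GLI1 and, in RERF-LC-AI cells, SHH.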
